A study of Mus musculus with 15 samples.

Results

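The genes described here encode the proteasome: every gene whose array annotation carries a single symbol made of Psma to Psmg and a number. The rule matched 103 probe sets of 49 genes, of the 18193 genes that the array measures by a probe set with 1 symbol. The 49 were 3 immune catalytic subunits (Psmb8, Psmb9, Psmb10), the activator subunit Psme1, 31 constitutive subunits, and 14 others, which are activators, an inhibitor, assembly chaperones, tissue-restricted subunits and the 2 genes Psme3ip1 and Psmc3ip, whose symbols fit the rule although they encode no subunit. Psme2, the partner of Psme1, was not measured apart from a relative, since its only probe set carries 2 symbols. For 46 of the genes (79 probe sets) at least 1 probe set passed the filter on low signals, and each gene is represented by its brightest tested probe set.

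The livers came from male C57BL/6J mice, 8 weeks old at the start and fed for 12 weeks. The 5 NC mice ate CRF-1 standard chow. The diet of the 5 CL mice, which brings on steatohepatitis, held cholesterol at 1.25%, sodium cholate at 0.5% and cocoa butter at 60%, and the remaining 38.23% was CRF-1. The 5 CL+CX mice ate that diet with β-cryptoxanthin, a carotenoid of citrus fruit, at 0.003% by the treatment text and the methods and at 0.005% by the sample titles. Each liver gave 1 array, so 5 mice per group limit the precision, and whole tissue was measured, so that fewer cells of a type and less RNA per cell cannot be told apart. Of 10 hepatocyte markers, 9 had a probe set with 1 symbol and all 9 passed the filter, with summed scaled signals of 46957 to 82427 in single livers.

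The 26S proteasome degrades proteins tagged with ubiquitin. Its 20S core is a stack of rings of alpha and beta subunits, and the proteolytic sites lie in the beta subunits Psmb5, Psmb6 and Psmb7. The 19S cap, built from AAA ATPases (Psmc genes) and non-ATPase subunits (Psmd genes), binds and unfolds the substrate. Leukocytes, and other cells under interferon γ, make Psmb8, Psmb9 and Psmb10 in place of Psmb5, Psmb6 and Psmb7 in newly built cores, the immunoproteasome, which favours peptides that fit MHC class I molecules. Psme1 and Psme2 form PA28, a ring that opens the core without the 19S cap.

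The CL diet raised all 3 immune catalytic subunits, where 7.17% of 10525 genes were called higher and 6.76% lower. Psmb9 rose 3.85-fold, Psmb8 2.98-fold and Psmb10 2.07-fold over NC, while Psme1 did not pass the test and the 31 constitutive subunits centred on a log2 difference of -0.05. In the mice given β-cryptoxanthin, Psmb8, Psmb9 and Psmb10 differed from CL by -0.14, 0.01 and -0.04 on the log2 scale. With 1 mouse at a time left out, these differences ran from -0.44 to 0.02, from -0.31 to 0.19 and from -0.33 to 0.09. The lowest values were those without the mouse with the highest signals. None of the 46 member genes was called against CL by limma, 2 had an unadjusted p under 0.05, and only 1.46% of all genes were called higher and 1.78% lower, so this count says little about the members. The comparison of CL with NC asks what the diet does, and that of CL+CX with CL asks what β-cryptoxanthin does on top of it. The comparisons are not independent, since each group serves in a pair of them.

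Psmb9 (β1i, LMP2) replaces Psmb6 in the immunoproteasome. Its scaled signals were 51.5, 71.3, 69.2, 75.1 and 69.2 in the 5 NC mice. They were 158, 333, 331, 368 and 174 in the CL mice and 224, 157, 187, 279 and 625 in the CL+CX mice. Every CL and every CL+CX mouse lay above every NC mouse, and the CL and CL+CX ranges overlapped. The share of all genes with groups apart in this way was not counted, here or for Psmb8 and Psmb10. The log2 difference was 1.94 (SE 0.33, limma adjusted p = 0.00156) for CL over NC and 1.95 (SE 0.33, adjusted p = 0.0027) for CL+CX over NC. Between CL+CX and CL it was 0.01, with a 95% interval from -0.69 to 0.70. Psmb9 ranked 112 of 10525 genes by its rise in CL.

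Psmb8 (β5i, LMP7) replaces Psmb5, and its signals were 92.2, 120, 113, 159 and 135 in NC. They were 267, 501, 321, 496 and 293 in CL and 282, 210, 240, 360 and 749 in CL+CX. NC again lay apart from both other groups. The log2 difference was 1.57 (SE 0.30, adjusted p = 0.00329) for CL over NC and 1.43 (SE 0.30, adjusted p = 0.00842) for CL+CX over NC. Between CL+CX and CL it was -0.14 (95% interval -0.77 to 0.49). A second, weak probe set of Psmb8 lay under the median signal of each NC array. Its signals overlapped, with 7.08 to 11.5 in NC and 8.24 to 43.7 in CL. Its log2 difference of 1.00 (95% interval 0.18 to 1.81) did not pass the test (adjusted p = 0.107). With the NC signals raised to the array median, the mean rise in CL was 1.52-fold.

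Psmb10 (β2i, MECL-1) replaces Psmb7, and its signals were 136, 196, 189, 152 and 202 in NC. They were 279, 512, 326, 502 and 255 in CL and 250, 253, 247, 421 and 790 in CL+CX. No CL or CL+CX value reached down to NC. The log2 difference was 1.05 (SE 0.30, adjusted p = 0.0331) for CL over NC and 1.01 (SE 0.30, adjusted p = 0.046) for CL+CX over NC, and it was -0.04 (95% interval -0.68 to 0.60) between CL+CX and CL. The calls of Psmb10 were close to the threshold. Leaving out 1 mouse at a time lost the call of CL over NC in 7 of 15 cases (NC replicates 1 to 4 and CL replicates 2 to 4). The differences over all 15 cases were 0.92 to 1.18. The call of CL+CX over NC was lost in 9 of 15 cases (all NC mice, CL replicates 1 and 3 and CL+CX replicates 4 and 5). Here the differences over all 15 cases were 0.72 to 1.14. The calls of Psmb8 and Psmb9 held in all 15 cases.

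Psme1 (PA28α) gave 524 to 688 in NC, 558 to 983 in CL and 502 to 869 in CL+CX. The 3 ranges overlapped. Its log2 difference was 0.26 (SE 0.17, adjusted p = 0.342) for CL over NC and -0.18 (SE 0.17, adjusted p = 0.595) for CL+CX against CL.

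**Figure D1:**
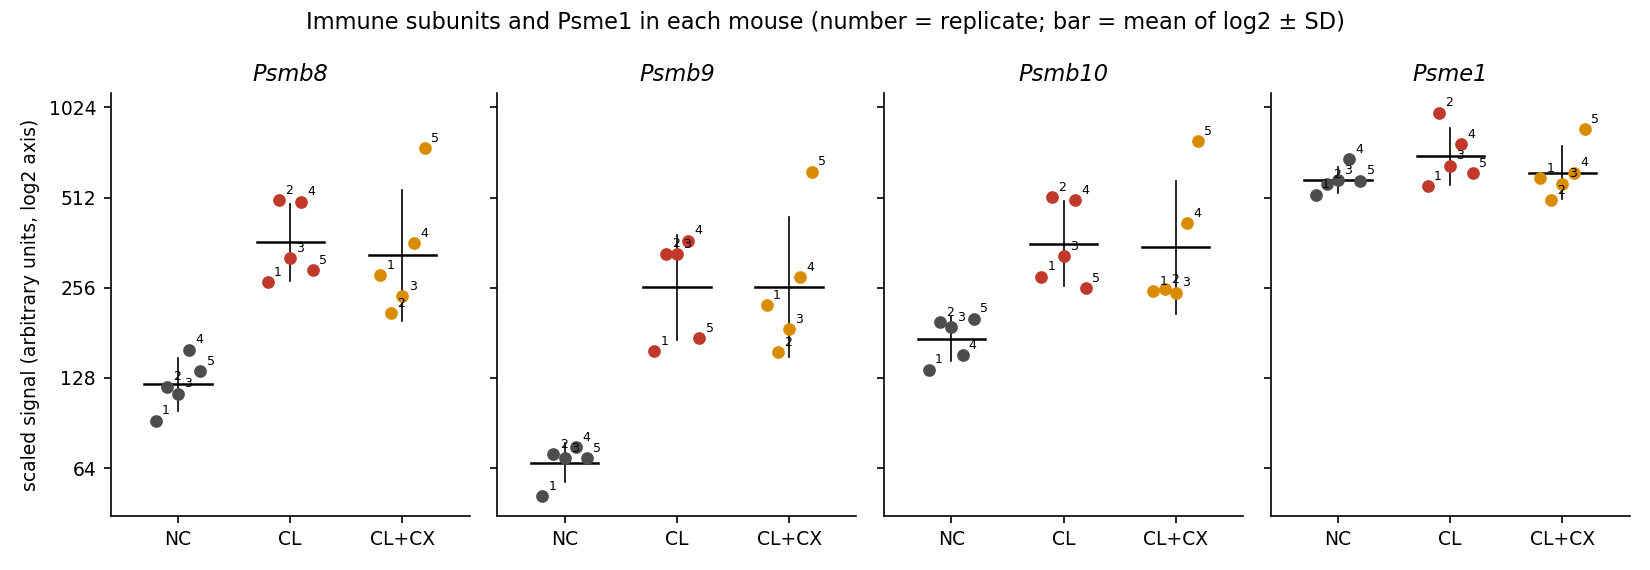
Scaled array signal (arbitrary units, log2 axis) of Psmb8, Psmb9, Psmb10 and Psme1 in each of 5 NC, 5 CL and 5 CL+CX mice. Points are mice with their replicate number, horizontal lines the mean of the log2 values and vertical lines ± 1 SD. NC lies apart from both other groups for the 3 immune subunits and overlaps them for Psme1, and CL+CX replicate 5 is the highest mouse for all 3 immune subunits (749, 625 and 790). The share of all genes that lie apart in this way was not counted.

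The immune subunits of the CL+CX mice were spread widely. CL+CX replicate 5 had the highest signal of all 15 mice for Psmb8, Psmb9 and Psmb10. Without it, CL+CX against CL gave -0.44 for Psmb8 (adjusted p = 0.32), -0.31 for Psmb9 (adjusted p = 0.5575) and -0.33 for Psmb10 (adjusted p = 0.484). None of them passed the test with or without this mouse. Without it, Psmb10 in CL+CX over NC was 0.72 (adjusted p = 0.0852). Other single mice left out moved the differences of CL+CX from CL the other way. Without CL+CX replicate 2 they were 0.02 for Psmb8 and 0.19 for Psmb9, and without CL replicate 2 that of Psmb10 was 0.09.

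Psmb9 and Psmb8 are neighbours on mouse chromosome 17, inside the MHC region, where the RefSeq genes run in the order Psmb9, Tap1, Psmb8, Tap2. Psmb9 and Tap1 are transcribed away from each other, and 225 bases separate the 2 genes. Tap1 and Tap2 encode the transporter that carries peptides into the endoplasmic reticulum for MHC class I. Tap1 gave a log2 difference of 0.99 (adjusted p = 0.0721) for CL over NC and 1.15 (adjusted p = 0.0458) for CL+CX over NC. Tap2 gave 0.61 (adjusted p = 0.0772) and 0.66 (adjusted p = 0.0609), so that in CL the called rise along this stretch was that of the 2 subunit genes, with Tap1 and Tap2 short of the threshold.

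The 120 bases before the transcript start of the 3 immune subunits are shown with those of Psmb5, as the stretch in which proximal elements usually lie. The bases are from RefSeq (build GRCm38.p6), 5′ to 3′ on the gene's strand. They lie at chr17:34198075-34198194 (plus strand), chr17:34187331-34187450 (minus strand), chr8:105938393-105938512 (minus strand) and chr14:54617996-54618115 (minus strand). Capitals mark a motif found by script.
Psmb8: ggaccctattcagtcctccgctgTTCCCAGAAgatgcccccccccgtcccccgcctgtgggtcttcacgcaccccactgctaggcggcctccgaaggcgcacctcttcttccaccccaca
Psmb9: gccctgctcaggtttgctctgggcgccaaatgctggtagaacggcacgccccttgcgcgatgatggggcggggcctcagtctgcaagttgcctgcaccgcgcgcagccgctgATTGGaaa
Psmb10: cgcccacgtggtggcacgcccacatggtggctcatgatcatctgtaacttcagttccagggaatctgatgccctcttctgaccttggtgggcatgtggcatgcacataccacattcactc
Psmb5: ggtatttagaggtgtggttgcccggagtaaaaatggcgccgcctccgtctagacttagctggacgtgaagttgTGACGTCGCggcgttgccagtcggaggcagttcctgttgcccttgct
The motifs searched on both strands of the 250 bases before the start were a pair of half-sites of the interferon-stimulated response element (GAAANNGAA), the gamma-activated site (TTCNNNGAA), the core of the antioxidant response element to which NFE2L1 and NFE2L2 bind (TGACNNNGC), and the CCAAT box. A promoter was held for 39 of the 46 tested member genes. The gamma-activated site was matched in Psmb8 (bases 97 to 89 before the start), and the CCAAT box, read on the opposite strand, in Psmb9 (bases 8 to 4). In Psmb5 the capitals are the antioxidant core (bases 47 to 39). No match overlapped another. These letters are common: the gamma-activated site stood in 8.13% of 27025 gene promoters and in 2 of the 39 members, Psmb8 and Psmg1. The half-site pair stood in 8.18% of all promoters and in 3 of 39 members, none of them an immune subunit. The antioxidant core stood in 11.5% and in 5 of 39, which were Psmb5, Psmb6, Psmc6, Psmd12 and Psmd9, and the CCAAT box in 37.5% and in 14 of 39.

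Each immune subunit was then set against the constitutive subunit whose place it takes, as the log2 difference of the pair within each liver. Only the shift of this difference between groups can be read, since different probe sets have different brightness. The Psmb8 minus Psmb5 difference was higher by 1.46 in CL than in NC, Psmb9 minus Psmb6 by 2.17 and Psmb10 minus Psmb7 by 1.23. Each gave p = 0.00794 in the exact two-sided permutation test with 5 mice a group, the smallest value that this design allows, and 0.0119 after Benjamini-Hochberg adjustment over the 9 tests. For CL+CX over NC the shifts were 1.36, 2.17 and 1.16 with the same exact p. All 10 mice on the CL diets lay above all NC mice for each pair.

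Between CL+CX and CL the pair differences moved by -0.10, -0.00 and -0.06, with exact permutation p of 0.778, 0.992 and 0.825. The SD of the pair differences was 0.41 to 0.54 in CL and 0.69 to 0.73 in CL+CX. Without CL+CX replicate 5 the shifts were -0.40, -0.27 and -0.35. CL replicate 4 was the highest CL mouse for all 3 pairs, and without it the shifts of CL over NC were 1.27, 1.95 and 1.06. Without CL replicate 4 the shifts between CL+CX and CL were 0.09, 0.215 and 0.10, so their sign depended on single mice.

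**Figure D2:**
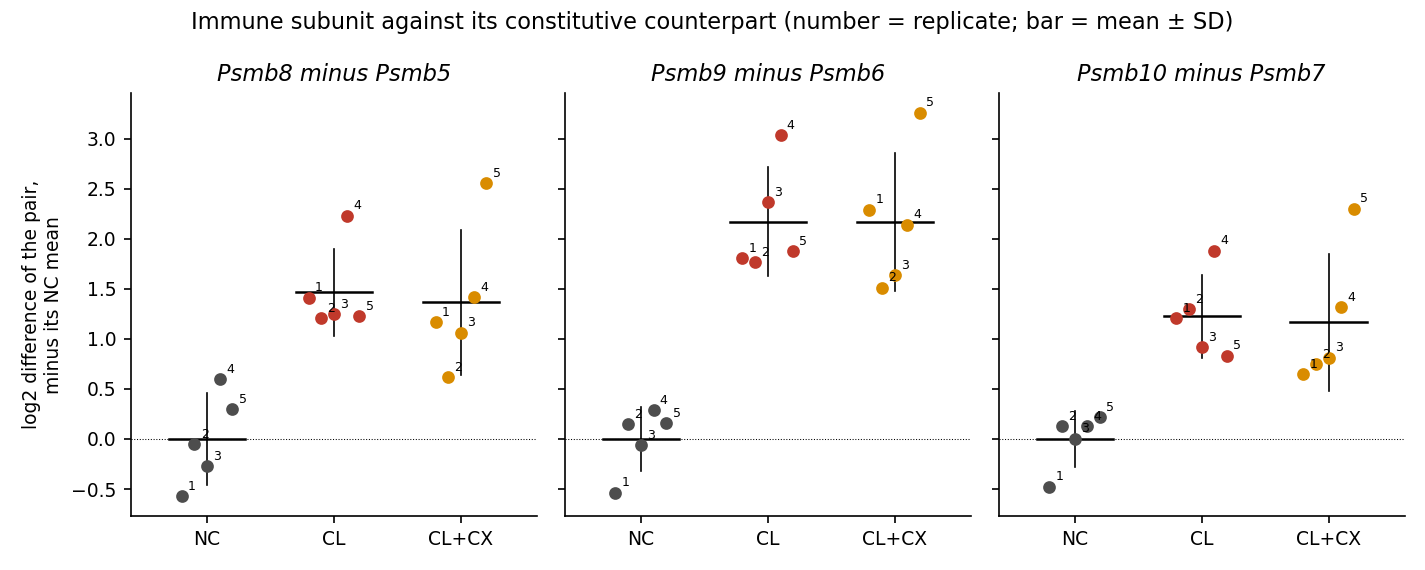
Log2 difference between each immune subunit and its constitutive counterpart, less the NC mean of that pair, in each of 5 mice per diet. Points are mice with their replicate number, horizontal lines group means and vertical lines ± 1 SD. The CL means lie at 1.46, 2.17 and 1.23, and the CL and CL+CX points overlap in each pair.

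The constitutive subunits were read next. Of the 31 constitutive subunits 1 was called higher and 0 lower by limma in CL over NC, and 2 had an unadjusted p under 0.05. Over all genes 7.17% were called higher and 6.76% lower, so these counts say little about the constitutive subunits. Their log2 differences ran from -0.28 to 0.48, 12 above 0 and 19 below, with a median of -0.05 beside -0.08 for all genes. The catalytic subunits that the immune ones replace gave 0.11 for Psmb5 (SE 0.18), -0.23 for Psmb6 (SE 0.19) and -0.18 for Psmb7 (SE 0.14), and none passed. On the deposited, unscaled signals the median of the constitutive subunits was 0.27 beside 0.24 for all genes.

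The ranges of the replaced subunits overlapped between all 3 diets. Psmb5 (β5), which cuts after hydrophobic residues, gave 767 to 1002 in NC, 734 to 1586 in CL and 839 to 1003 in CL+CX. Psmb6 (β1), which cuts after acidic residues, gave 794 to 963, 579 to 1267 and 593 to 844. Psmb7 (β2), which cuts after basic residues, gave 804 to 1092, 694 to 1202 and 809 to 973. In CL the highest value of each was that of replicate 2.

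By class, the median log2 difference of CL from NC was 0.08 for the 7 alpha subunits, -0.10 for the 7 constitutive beta subunits, -0.01 for the 6 ATPases and -0.16 for the 11 non-ATPase subunits. The alpha subunits ran from -0.08 to 0.48, the beta subunits from -0.23 to 0.11, the ATPases from -0.26 to 0.09 and the non-ATPase subunits from -0.28 to 0.33. The called gene was the alpha subunit Psma6, with 721 to 1036 in NC, 942 to 1333 in CL and 1078 to 1571 in CL+CX. Its difference of CL from NC was 0.48 (SE 0.15, adjusted p = 0.0477), and NC and CL overlapped. It rested on 1 of 3 tested probe sets, since the others gave -0.00 and -0.07, and the mean of all 3 gave 0.14 (adjusted p = 0.598). Psmd11, a lid subunit, stood at -0.28 with an unadjusted p of 0.041 and did not pass after adjustment.

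CL replicate 2 stood apart in these subunits. Its median over the 31 constitutive subunits was 0.60 above the NC mean on the log2 scale, against -0.34 to -0.02 in the other 4 CL mice. This array also correlated least with its group (mean r 0.941, against 0.957 to 0.962 for the other CL arrays). Psmb5 shows it, with 1586 in CL replicate 2 and 734 to 989 in the other CL mice. Without this mouse 28 of 31 constitutive subunits lay below NC, with a median of -0.21 beside -0.10 for all genes, and 5 were called lower (Psmb3, Psmb6, Psmc1, Psmc5 and Psmd12, at -0.31 to -0.42). With the mouse left out, 13.1% of all 10668 tested genes were called lower, so the 5 of 31 say little about the proteasome in particular. The call of Psma6 was lost without this mouse (0.43, adjusted p = 0.064), as it was without 11 others, and Psmb10 stood at 0.92 (adjusted p = 0.056).

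**Figure D3:**
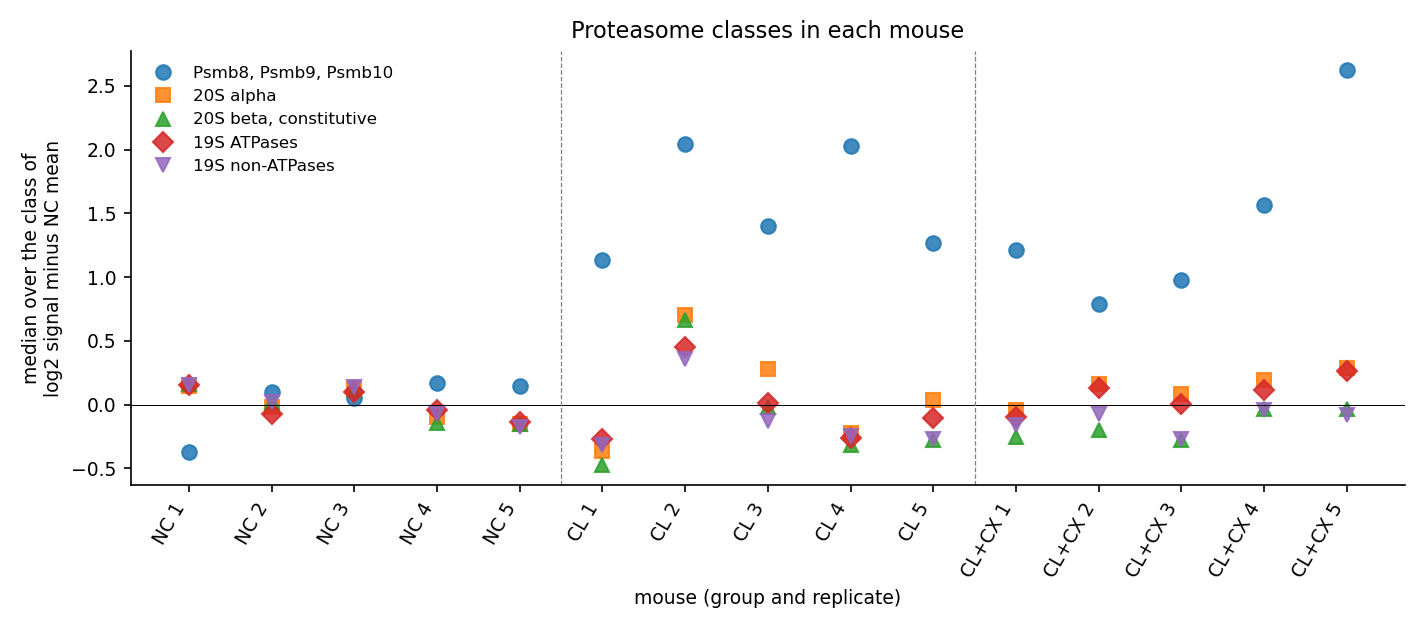
Median over each proteasome class of the log2 signal less the gene's NC mean, for each of the 15 mice. Blue circles are Psmb8, Psmb9 and Psmb10, and the other symbols the 4 classes of constitutive subunits. The immune median lies between 0.79 and 2.62 in every mouse on a CL diet, while the constitutive classes lie between 0.36 and 0.70 in CL replicate 2 and between -0.48 and 0.29 in the other 14 mice.

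Between CL+CX and CL, where few genes of any kind were called, 0 of the 46 member genes were called by limma. The same count of 0 came from the test that the methods name and from every other alternative tried. An unadjusted p under 0.05 was found for 2 genes. These were the lid subunit Psmd3 at 0.32 (limma adjusted p = 0.168) and the chaperone Psmd10 at -0.31 (limma adjusted p = 0.242). The constitutive subunits ran from -0.23 to 0.39 with a median of 0.01, beside 0.02 for all genes. All 6 ATPases lay above 0, from 0.01 to 0.39, with medians of 0.05 for the alpha subunits, -0.03 for the beta subunits, 0.05 for the ATPases and -0.01 for the non-ATPase subunits. Without CL replicate 2 the median of the 31 constitutive subunits was 0.15, beside 0.06 for all genes, and still none was called. Among single probe sets, 1.57% were called higher and 1.55% lower, and of the 79 member probe sets 1 was called, a weak one of Psmd13 with 25.0 to 34.6 in CL and 40.7 to 77.5 in CL+CX (log2 difference 0.94, adjusted p = 0.0128). The other 2 tested probe sets of Psmd13 gave -0.05 and -0.18.

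**Figure D4:**
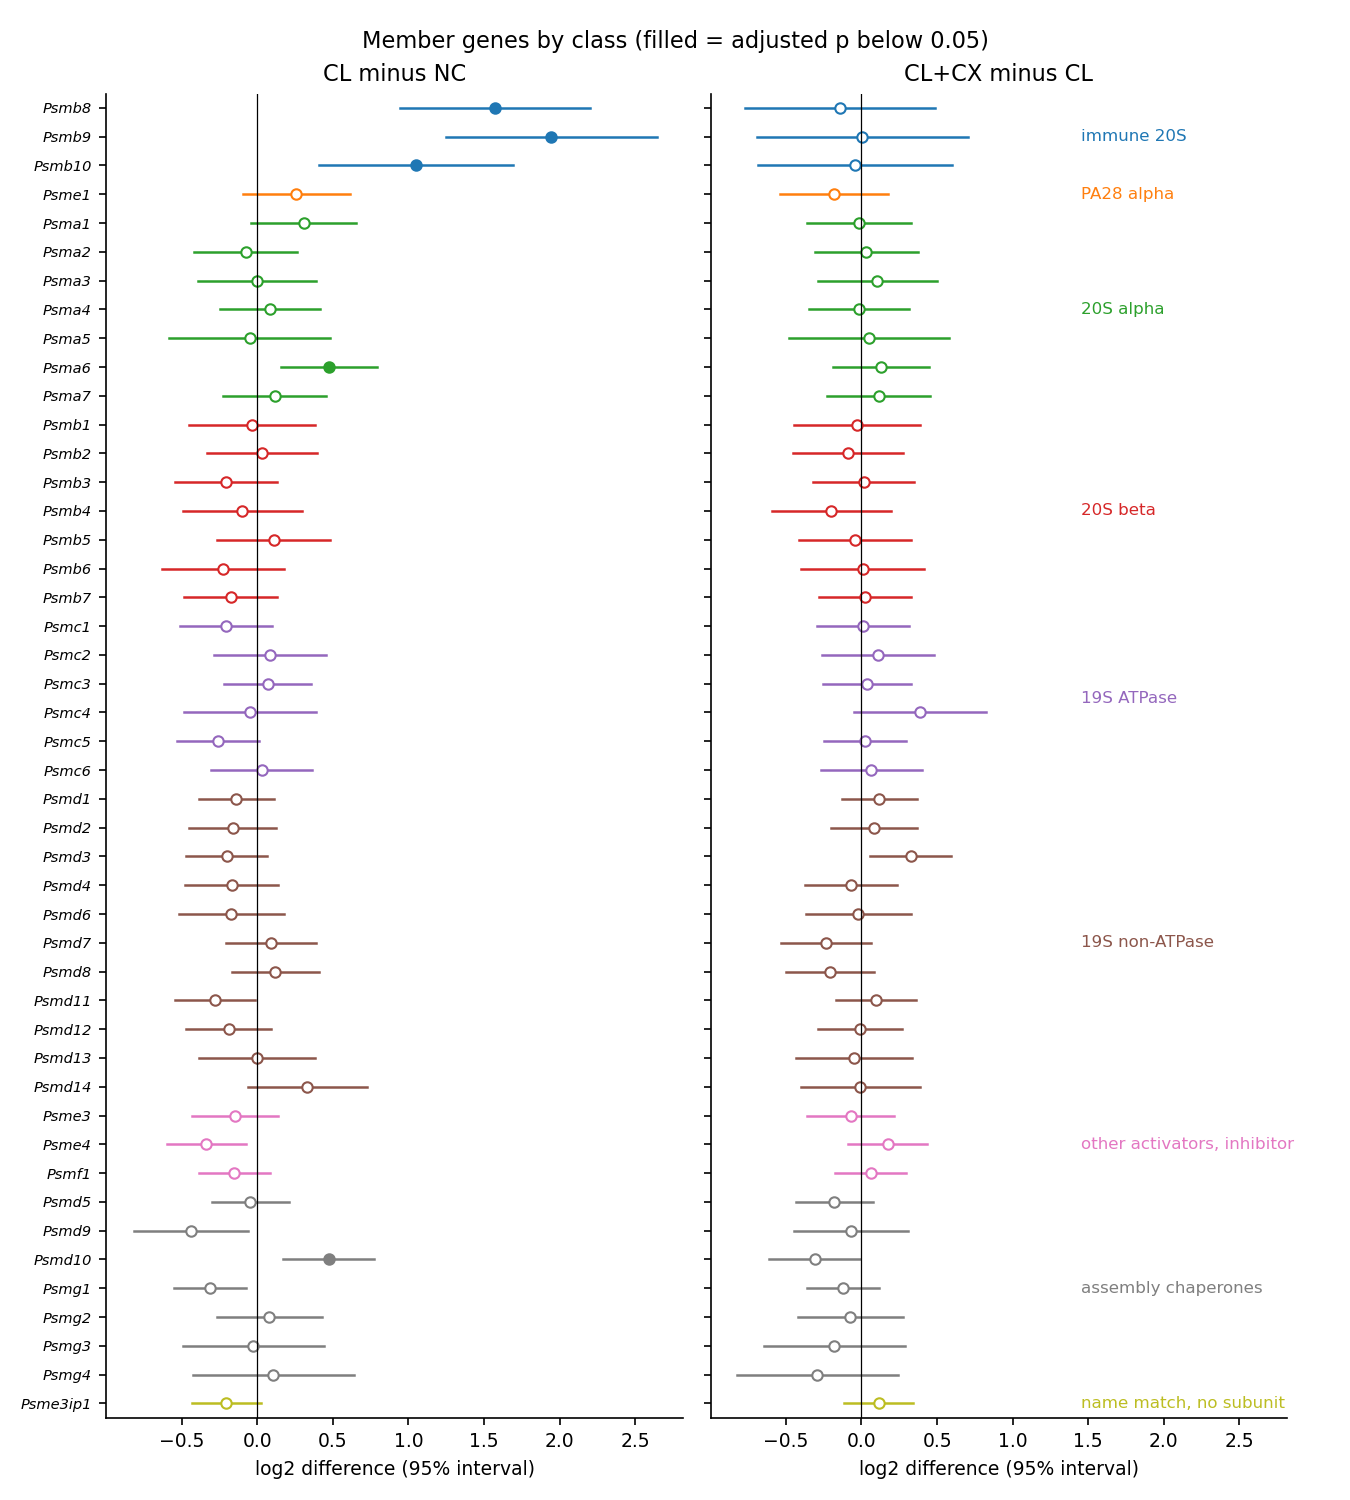
Log2 difference of CL from NC (left) and of CL+CX from CL (right) for the 46 tested member genes, ordered and coloured by class, with 95% intervals from limma. Filled points have an adjusted p below 0.05: 5 genes on the left (Psmb8, Psmb9, Psmb10, Psma6 and Psmd10) and none on the right. Of all genes, 7.17% were called higher and 6.76% lower on the left, and 1.46% and 1.78% on the right. The 2 counts therefore say little about the members as a family.

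The other members include the chaperones that build the core and the cap. Psmd10 (gankyrin), a chaperone of the 19S base, gave 66.8 to 89.4 in NC, 80.6 to 145 in CL and 80.0 to 97.2 in CL+CX. It was higher in CL than in NC by 0.47 (SE 0.14, adjusted p = 0.0403), although the ranges overlapped. The call was lost in 11 of 15 cases with 1 mouse left out, and held without NC replicate 1, CL replicate 2, CL replicate 4 or CL+CX replicate 2. Psmg1, a chaperone of the alpha ring, gave 256 to 299 in NC, 204 to 289 in CL and 194 to 220 in CL+CX. It stood at -0.31 in CL (adjusted p = 0.0845) and fell by 0.44 in CL+CX against NC (SE 0.11, adjusted p = 0.0239), a call lost without NC replicate 1 or 3 or CL+CX replicate 1, 2 or 4. Its CL value depended on CL replicate 2, without which it was -0.40 (adjusted p = 0.00632).

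Psmd9, another base chaperone, stood at -0.44 in CL (adjusted p = 0.125), and without CL replicate 2 at -0.60 (adjusted p = 0.0086). In CL+CX over NC it was -0.50 (adjusted p = 0.0817), and without that CL mouse, which adds to the spread in the model, its adjusted p was 0.0199. The chaperones Psmd5, Psmg2, Psmg3 and Psmg4 lay between -0.05 and 0.11 in CL and none was called. In CL+CX against CL the 7 chaperones lay between -0.31 and -0.07, none past the test. Without CL replicate 2 they lay between -0.19 and 0.10, with Psmd9 and Psmg2 above 0.

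Psme4 encodes PA200, an activator of the core in the nucleus. Its brightest probe set gave -0.34 in CL (SE 0.12, adjusted p = 0.0878), while its 3 other tested probe sets were called lower, at -0.36, -0.50 and -0.73 (adjusted p = 0.0155, 0.0367 and 0.0359). The mean of all 4 fell by 0.48 on the log2 scale (adjusted p = 0.00357). These 3 were the only member probe sets called lower in CL, where 6.36% of all probe sets were called lower and 5.88% higher, and 5 member probe sets were called higher. Psme3 (PA28γ) gave -0.15, Psmf1 (PI31, an inhibitor of the core) -0.15 and Psme3ip1 -0.20 in CL, none past the test. Psma8 (testis), Psmb11 (thymus) and Psmc3ip did not pass the filter on low signals, with signals of at most 18.5, 16.3 and 16.9.

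For CL+CX over NC, 5.06% of genes were called higher and 4.84% lower, and among the members Psmb9, Psmb8, Psmb10 and Psma6 were called higher and Psmg1 lower. Psma6 stood at 0.61 (SE 0.15, adjusted p = 0.0194), again on the same single probe set. Among probe sets 4.76% were called higher and 4.98% lower, and 4 and 3 of the 79 member probe sets were. The 3 lower ones were that of Psmg1 and 2 of Psme4, at -0.40 and -0.68.

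Genes that work with the proteasome under other symbols were read from lists of its pathways. Of 13 measured factors (further subunits, bound enzymes, shuttles and the maturation factor Pomp) none was called in CL, where 4 had an unadjusted p under 0.05 by limma. Over all genes 7.17% were called higher in CL and 6.76% lower, so a count of 0 in a list this short or shorter says little. Pomp, which helps the core mature, gave 0.25 (adjusted p = 0.407). Zfand5, a ubiquitin-binding protein, fell by 0.52 in CL+CX against NC (adjusted p = 0.0211). Nfe2l1, the factor that drives subunit genes when proteasomes run short, gave -0.18 in CL (adjusted p = 0.451) and 0.15 in CL+CX against CL (adjusted p = 0.612). Of the 6 genes in its list, itself included, none was called in CL by limma, where 2 had an unadjusted p under 0.05, and Sqstm1 (p62, a carrier of ubiquitinated proteins to autophagy) fell by 0.61 in CL+CX against CL (adjusted p = 0.0403). Ubd (FAT10), a ubiquitin-like tag that is itself read by the proteasome, rose by 3.55 in CL (adjusted p = 0.000429) and by 3.19 in CL+CX (adjusted p = 0.00197) over NC.

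Of the 12 measured genes of MHC class I antigen processing, none was called in CL by limma, 3 had an unadjusted p under 0.05, and Tap1 was called higher in CL+CX over NC. With 7.17% of all genes called higher in CL and 6.76% lower, the count of 0 says little about this list. B2m and H2-K1, the light chain and a heavy chain of class I, gave -0.15 and 0.02 in CL. Of the 8 tested genes of interferon γ signalling, 4 were called higher in CL, beside 7.17% of all genes: Irf8 at 1.10 (adjusted p = 0.00893), Irf1 at 0.90 (adjusted p = 0.0462), Irf9 at 0.66 (adjusted p = 0.0209) and the receptor chain Ifngr1 at 0.64 (adjusted p = 0.0018). None was called between CL+CX and CL, where 3 had an unadjusted p under 0.05 and only 1.46% of all genes were called higher and 1.78% lower. Irf1, which binds the promoters of several immune subunit genes, was also called in CL+CX over NC at 1.09 (adjusted p = 0.0231).

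Markers of leukocytes and macrophages rose in the same CL livers, where 7.17% of all genes were called higher. Of 10 pan-leukocyte markers 8 were called higher in CL, with a median log2 difference of 1.66, and of 10 macrophage markers all 10, with a median of 1.86. The summed leukocyte signal ran from 514 to 768 in NC, from 1430 to 2369 in CL and from 793 to 1565 in CL+CX. The summed macrophage signal ran from 973 to 2349, from 5951 to 7689 and from 2034 to 4354, so that CL+CX lay below every CL mouse. In CL+CX against CL the macrophage median was -1.17 with 6 of 10 called lower, the leukocyte median was -0.64 with 1 of 10 called lower (Cd53), and Psmb8, Psmb9 and Psmb10 stood at -0.14, 0.01 and -0.04. The difference between these changes was not tested, nor was the part of the immune cells in the level of the subunits. Of 9 T and natural killer cell markers measured, 3 passed the filter and all 3 were called higher in CL (Nkg7, Klrk1 and Cd3g), and Cd247 and Cd4 lay below the array median on every array. A dim marker can pass the filter through the group where it is high alone, so this count cannot show a rise of the list. CL+CX replicate 5, highest for the immune subunits, had a summed leukocyte signal of 1560 and a summed macrophage signal of 3317, each the second highest of its group. Of 4 B cell markers measured, 2 passed the filter and 0 were called in CL. Of 5 dendritic cell markers measured, 2 passed and 1 was called higher (Itgax). These counts have the same limit as that of the T and natural killer cell markers. The 6 endothelial markers had a median of 0.15 in CL over NC, with 0 called. Their median was -0.62 in CL+CX against CL, with 1 called lower (Clec4g), where 1.78% of all genes were. Of the 9 hepatocyte markers 3 were called lower in CL (Apob, Hnf4a and Tat), beside 6.76% of all genes.

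**Figure D5:**
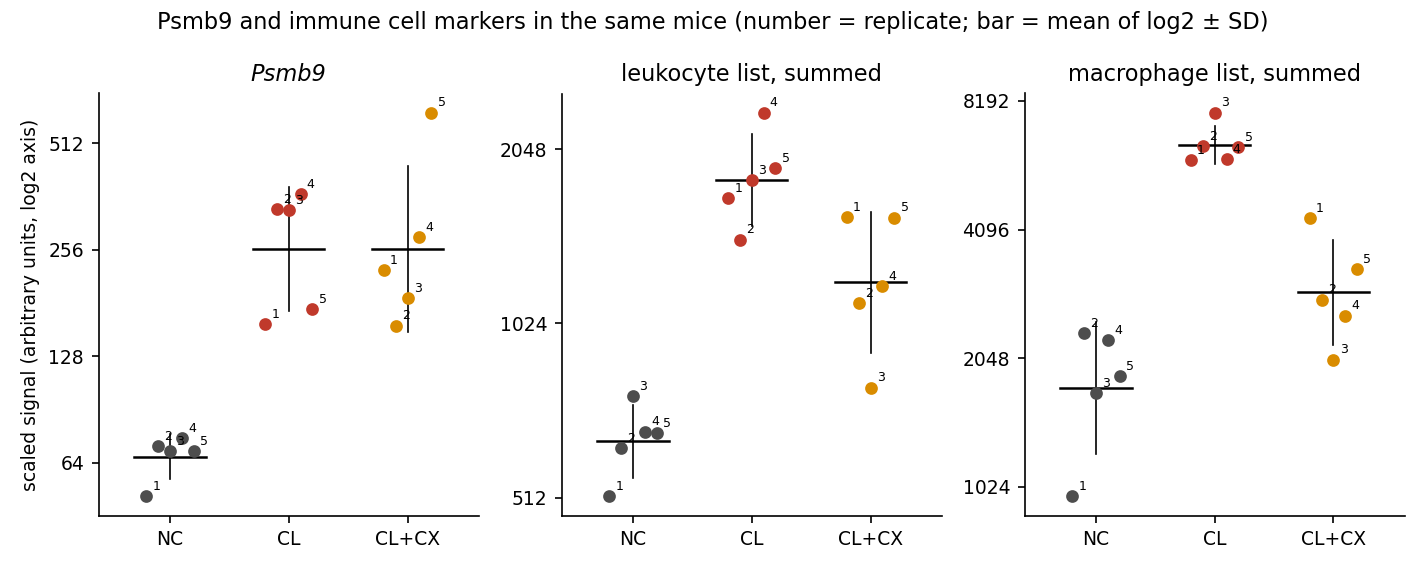
Scaled signal of Psmb9 and summed scaled signals of 10 pan-leukocyte and 10 macrophage markers in the same 15 livers (log2 axes, arbitrary units). Points are mice with their replicate number, horizontal lines means of log2 values and vertical lines ± 1 SD. Psmb9 overlaps between CL and CL+CX, as does the leukocyte sum (1430 to 2369 in CL and 793 to 1565 in CL+CX). The macrophage sum of every CL+CX mouse (at most 4354) lies below that of every CL mouse (at least 5951).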

How the data were processed

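The authors hybridised liver RNA of 15 mice, each to an Affymetrix 430 2.0 mouse chip. The deposited values are MAS5 signal intensity per probe set on a linear scale, not scaled between arrays, and the detection calls were not used here. For the tests, the 75th percentile of every array was set to 54.1, a floor of 1 was applied (11.2% of values lay under it), and log2 was taken. A probe set was tested when it reached its array's median on all 5 arrays of a group (20361 of 45101 rows, the 64 control rows left out). Gene symbols came from the platform annotation, updated through gene IDs, and 932 probe sets with several symbols were not named. A single limma model (version 3.58.1, R 4.3.3) held all 3 groups, with Benjamini-Hochberg adjustment over all tested probe sets and a threshold of 0.05. Pair differences were tested by exact permutation. The script was tested on simulated data.

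The members and lists were chosen with earlier results of these data known. Named were the immune subunits with every mouse, Psmb5, Psmb6 and Psmb7, each other member past the test, the activators, inhibitor and unmeasured members, and up to 4 called genes per list. Psmd3, Psmd9, Psmd11, Tap1, Tap2, Pomp, B2m, H2-K1 and single probe sets were named after their values were seen. Mice of one number were treated as unpaired (correlation of deviations -0.13 to 0.14), and all p-values measure the spread between the mice of these groups. Alternatives were the filter, the scaling, the offset, the test, the covariate, the summary of probe sets and each mouse left out. The hybridisation batch is not given in the sources used here. The 3′ to 5′ log2 difference of β-actin was 0.94 ± 0.09 in NC, 0.82 ± 0.10 in CL and 1.07 ± 0.10 in CL+CX (SD, n = 5), and its part in the results was examined only as a covariate. Every CL array (0.699 to 0.945) lay below every CL+CX array (0.949 to 1.17). In that comparison this measure and β-cryptoxanthin therefore cannot be told apart, with or without the covariate.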

Additional observations from a re-analysis of the deposited data

Results flagged for a closer look

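In 54 groups of 5 values looked at for a mouse far from the other 4, 4 held one by Dixon's gap, and chance alone gives about 1 in 20. Psmb9 was lowest in NC replicate 1, at 51.5, with a gap to the next mouse of 0.781 of the group's range. Psmb7 was lowest in NC replicate 4, at 804, with a gap of 0.71 of the range. Psmg1 was highest in CL replicate 2, at 289, with a gap of 0.818 of the range. The Psmb8 minus Psmb5 difference was highest in CL replicate 4, at -0.64 on the log2 scale, with a gap of 0.80 of the range.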

How the results depend on the processing

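Of 1404 refits of 54 log2 differences (27 alternatives each, but 21 for the 9 pair differences), 1316 kept their direction and side of the threshold, 79 lost the call, 9 gained it and none reversed a called direction. Psmb8 and Psmb9 kept their calls in CL and in CL+CX over NC under every alternative, and Psme1 in CL over NC gained one on the deposited signals (0.58, adjusted p = 0.0293). Psmb10 in CL over NC lost its call without the filter (adjusted p = 0.114), under the methods' test (0.0552), with the β-actin covariate (0.119) and without 7 single mice, and the cause was not tested. Psmb10 in CL+CX over NC lost it under those 3 settings, with the replicate block, without 9 single mice, and without CL replicate 2 and CL+CX replicate 5 together (an alternative chosen after seeing the data).

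Constitutive subunits called higher in CL over NC numbered 1, but 0 without the filter, under the methods' test, with the replicate block, with the mean of all probe sets, in the 2 groups alone and with those 2 mice both left out, 3 on the deposited signals, 2 after quantile normalization and 0 to 1 without single mice. The deposited signals moved the median of all genes in CL over NC to 0.24. Constitutive subunits called lower in CL over NC numbered 0, but 0 to 5 without single mice (5 without CL replicate 2) and 2 without both mice. Other members called in CL over NC numbered 1, but 0 without the filter, with the β-actin covariate and in the 2 groups alone, 2 with the mean of all probe sets and without both mice, and 0 to 4 without single mice. In CL+CX over NC, constitutive subunits called higher numbered 1, but 2 on the deposited signals, 0 without the filter, under the methods' test, with the mean of all probe sets and with the covariate, and 0 to 1 without single mice. Other members called in CL+CX over NC numbered 1, but 2 under the stricter filter, quantile normalization, the methods' test, the mean of all probe sets, the 2 groups alone and without both mice, 0 without the filter, on the deposited signals and with the covariate, and 0 to 2 without single mice.

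Replicate numbers were not taken to pair the mice, since deviations of mice of one number correlated at -0.13 to 0.14. The labels do not say whether the numbers mark pairs. With the replicate block, the sign flips within numbers cannot reach the threshold, and the pair differences of 1.46, 2.17 and 1.23 in CL and 1.36, 2.17 and 1.16 in CL+CX over NC had an exact adjusted p of 0.0938. Signals under the array median carry little precision, which limits Psma8, Psmb11 and Psmc3ip.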
